A study of Mus musculus with 5 samples.

Results

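Glycolysis splits glucose into pyruvate through a chain of cytosolic enzymes, and 10 genes of that chain were followed in single mouse cells. The 10 were given as a list of names: Hk1, Hk2, Gpi1, Pfkl, Pfkp, Aldoa, Tpi1, Gapdh, Pgk1 and Eno1, of 15597 genes with a read on any plate. All 10 were listed in ES replicate 3 and in MEF, and 9 in each of the other 3 plates. Cells of 3 types came on 5 plates of 96 wells. Embryonic stem (ES) cells of the R1 line, which the labels call embryonic stem cell-derived spheres, took up 3 plates (replicates 1, 2 and 3) and were grown by a protocol given only by reference. The neuroblastoma line Neuro2A took up 1 plate and fibroblasts of mouse embryos (MEF) another, and both were grown in DMEM with serum, antibiotics, Glutamax and 2-mercaptoethanol. No gene was altered and no drug was given in any group, as far as the labels say. Each cell was sorted into a well whose template-switching oligo carried its own barcode, so that reads mark the 5′ ends of transcripts, and the wells of a plate were pooled before PCR.

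The enzymes act in a fixed order. Hexokinase and phosphofructokinase commit glucose and spend ATP, aldolase and triose phosphate isomerase make the triose phosphates, and glyceraldehyde-3-phosphate dehydrogenase, phosphoglycerate kinase and enolase belong to the stretch that pays ATP back. Mouse embryonic stem cells and many tumour lines are known for a high glycolytic rate, and several of these genes are classical targets of hypoxia-inducible factors.

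The upstream windows of Pgk1, Aldoa and Hk2 are shown because, of the 10 genes, these hold ACGTG before a start, which is 1 of the 2 forms of the core of the hypoxia-inducible factor recognition sequence. Each line is the 250 bases before an annotated start (RefSeq, GRCm38.p6), read 5′ to 3′ on the gene's strand, with ACGTG or its reverse complement CACGT in capitals. The Pgk1 window is chrX:106186850-106187099 on the plus strand, the Aldoa window chr7:126799255-126799504 on the minus strand and the Hk2 window chr6:82774455-82774704 on the minus strand.
Pgk1: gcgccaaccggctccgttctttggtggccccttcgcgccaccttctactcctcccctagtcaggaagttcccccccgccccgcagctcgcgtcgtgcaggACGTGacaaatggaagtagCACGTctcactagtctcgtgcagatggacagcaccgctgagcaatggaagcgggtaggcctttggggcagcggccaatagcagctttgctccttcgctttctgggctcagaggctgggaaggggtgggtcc
Aldoa: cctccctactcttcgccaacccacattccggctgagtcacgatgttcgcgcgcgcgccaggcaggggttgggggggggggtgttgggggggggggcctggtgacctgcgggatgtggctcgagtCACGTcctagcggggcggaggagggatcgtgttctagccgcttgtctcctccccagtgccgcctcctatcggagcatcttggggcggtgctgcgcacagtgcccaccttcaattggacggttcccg
Hk2: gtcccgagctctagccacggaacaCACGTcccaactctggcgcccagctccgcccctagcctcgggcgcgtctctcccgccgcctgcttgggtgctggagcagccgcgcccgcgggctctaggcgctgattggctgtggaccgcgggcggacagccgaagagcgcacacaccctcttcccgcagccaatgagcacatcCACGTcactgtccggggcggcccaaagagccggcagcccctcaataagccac
ACGTG stood 2 times in the Pgk1 window, 1 time in that of Aldoa and 2 times in that of Hk2. On both strands, it was found before a start of 3 of the 10 genes, against 18.5% of 27018 genes with a window. GCGTG, the other form, was found for 5 (Hk1, Pfkl, Pfkp, Gapdh and Eno1), against 30.9% of genes. The E-box CACGTG, which contains ACGTG, was found for 0 of 10, against 6.86% of genes, and the GC box GGGCGG for 7 of 10, against 35.4%. These matches are letters in a window and no measure of binding. All 10 genes matched a window by symbol, some with several starts.

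The depth of a plate ranged from 277068 reads on genes in ES replicate 2 to 11434036 in ES replicate 1. A well was kept where it had 1000 gene reads or more. The ES plates kept 93, 66 and 94 wells, Neuro2A kept 86 and MEF kept 92, which makes 431 of 480 where the study states 436 cells. All 5 plates used the same 96 barcodes. The ES markers Pou5f1, Nanog and 8 more all had reads in every ES plate, while 1 of the 10 had any in Neuro2A and 3 in MEF. Fibroblast markers had reads for 2, 6 and 10 of 10 in ES replicates 1, 2 and 3, against 10 of 10 in MEF, and summed to 817, 1832 and 3545 CPM before scaling in ES, against 680 CPM in Neuro2A and 21412 CPM in MEF. Of 11 neuroblastoma markers, Th and Dbh, defining enzymes of catecholamine synthesis, had no read on any plate. Their absence thus does not set Neuro2A apart. The other 9 were all read in Neuro2A and also in MEF, against 3, 3 and 8 of them in ES replicates 1, 2 and 3. They summed to 1387 CPM before scaling in Neuro2A, against 149 CPM in MEF and at most 62.3 CPM in an ES plate. Genes far higher in MEF than in the plates other than ES replicate 3 appeared in ES replicate 3 at a median of 10.8% of their MEF reads (199 genes). Genes far higher in Neuro2A than in the 3 ES plates appeared in MEF at 9.45% of their Neuro2A reads (134 genes). The level in the receiving plate played no part in choosing either set. Genes that MEF expresses itself can thus be among the 134. With those shares subtracted, the median log2 fold change of the 10 genes described below was 1.52 for ES over MEF, beside 0.60 over all genes, and 2.56 for ES over Neuro2A, beside 0.69. Without subtraction these were 1.17 beside -0.08 over MEF and 2.52 beside 0.91 over Neuro2A. Where the subtracted reads came from was not tested. Levels below are counts per 1e6 gene reads (CPM), summed over the kept wells of a plate and scaled by TMM. In such sums, fewer cells with a transcript and less of it per cell cannot be told apart. The effect of a cell type cannot be told apart from that of its plate either, no label gives the ES plates separate cultures, and every p below measures only the spread between those 3 plates. No molecular identifiers were used, so intervals cover counting error only.

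Glycolytic reads were most abundant in ES cells. The 10 genes together took 0.464%, 0.499% and 0.297% of gene reads in ES replicates 1, 2 and 3, against 0.0860% in Neuro2A and 0.0948% in MEF. The ES mean of 0.420% ± 0.108 (SD, n = 3) was 4.89 times the Neuro2A value and 4.43 times the MEF value, and the lowest ES plate lay above both. After TMM scaling, which lifts MEF, the summed level was 3638 ± 701 CPM in ES (SD, n = 3), against 867 CPM in Neuro2A and 1395 CPM in MEF. Aldoa made up much of the ES sum. Without it the ES mean was 1935 ± 534 CPM, still 4.35 times the 444 CPM of Neuro2A and 1.71 times the 1133 CPM of MEF. The highest plate was an ES plate for each of the 10 genes: replicate 1 for 4 of them, replicate 2 for 3 and replicate 3 for 3. With 3 ES plates among 5 this count alone shows no difference, and the share over all genes was not counted. For Hk1 the highest plate had 4 reads, all from 1 well.

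**Figure D1:**
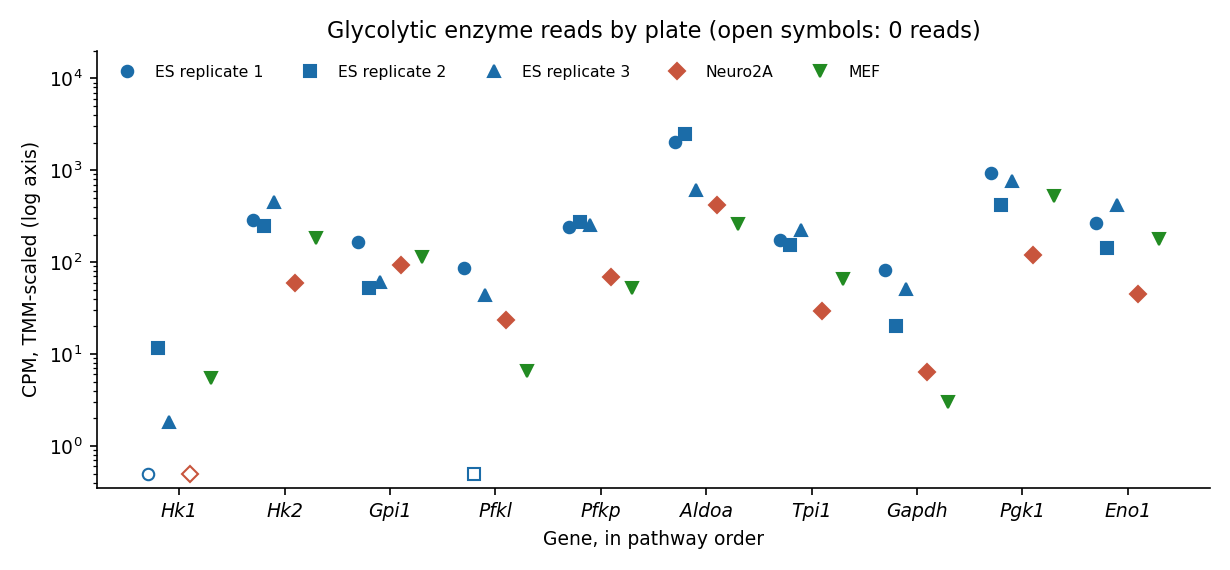
Level of each glycolytic gene in each plate, in TMM-scaled CPM on a log axis, with genes in pathway order and open symbols for 0 reads. The 3 ES plates (blue) lie above Neuro2A and MEF for Hk2, Pfkp, Aldoa, Tpi1 and Gapdh, while Gpi1 is mixed.

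Hexokinase traps glucose in the cell by phosphorylating it. Hk2, the inducible isoenzyme of growing and tumour cells, had 286, 248 and 448 CPM in the ES plates 1, 2 and 3, against 59.2 CPM in Neuro2A and 182 CPM in MEF. Its order was ES, MEF, Neuro2A, and every ES plate lay above both others. The ES mean of 327 ± 106 CPM (SD, n = 3) was 5.53 times the Neuro2A level and 1.80 times the MEF level. Hk1, the isoenzyme of brain and most adult tissues, was barely read: 0, 4 and 4 reads in ES replicates 1, 2 and 3, against 0 in Neuro2A and 11 in MEF. All 4 reads of ES replicate 2 and all 4 of replicate 3 came from 1 well each, so its levels of 0, 11.5 and 1.82 CPM in ES, against 0 CPM in Neuro2A and 5.52 CPM in MEF, give no order. Hk2 held 100%, 95.6% and 99.6% of the reads of both hexokinases in the ES plates, against 100% in Neuro2A and 97.1% in MEF (exact binomial interval 94.8% to 98.5%).

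Glucose-6-phosphate isomerase turns the product into fructose-6-phosphate. Its gene Gpi1 had 164, 51.9 and 61.3 CPM in the ES plates 1, 2 and 3, against 92.8 CPM in Neuro2A and 114 CPM in MEF. ES replicate 1 was the highest of all plates and the other 2 ES plates were the lowest, so the groups overlapped. The ES mean of 92.3 ± 62.0 CPM (SD, n = 3) differed from either other plate by less than the ES spread. A single well held 42.5% of the Gpi1 reads of ES replicate 1, and a single well 43.0% of those of MEF.

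Phosphofructokinase, the committed and most regulated step, works as a tetramer of liver, muscle and platelet subunits. The platelet subunit Pfkp had 242, 271 and 251 CPM in the ES plates 1, 2 and 3, against 69.7 CPM in Neuro2A and 52.7 CPM in MEF. It was the steadiest of the 10 genes between ES plates, at 255 ± 15.0 CPM (SD, n = 3), which was 3.65 times Neuro2A and 4.83 times MEF. The liver subunit Pfkl had 85.4, 0 and 43.6 CPM in the ES plates 1, 2 and 3, against 23.3 CPM in Neuro2A and 6.52 CPM in MEF. Its 0 in ES replicate 2 stands at a depth where 3 reads amount to 8.65 CPM, so a level like that of MEF would not be detectable there. In Neuro2A the Pfkl reads came from 2 wells, and 1 of them held 98.6%.

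The muscle subunit Pfkm is not among the 10 genes but decides how the phosphofructokinase reads divide. Pfkp held 58.2%, 94.9% and 81.4% of the reads of the 3 subunits in ES replicates 1, 2 and 3, against 36.9% in Neuro2A and 47.1% in MEF. Pfkm held 21.3%, 5.05% and 4.42% in the ES plates, against 50.7% (interval 46.6% to 54.8%) in Neuro2A and 47.1% (40.4% to 53.9%) in MEF. Every ES plate thus lay above both others for Pfkp and below both for Pfkm. The mean of the shares per well gave the same order, with Pfkp at 62.0%, 91.1% and 74.3% in ES, 44.3% in Neuro2A and 48.7% in MEF. The Pfkm level itself overlapped, with 88.5, 14.4 and 13.6 CPM in the ES plates 1, 2 and 3, against 95.6 CPM in Neuro2A and 52.7 CPM in MEF. With 1 plate of each other type, these shares were not tested.

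**Figure D2:**
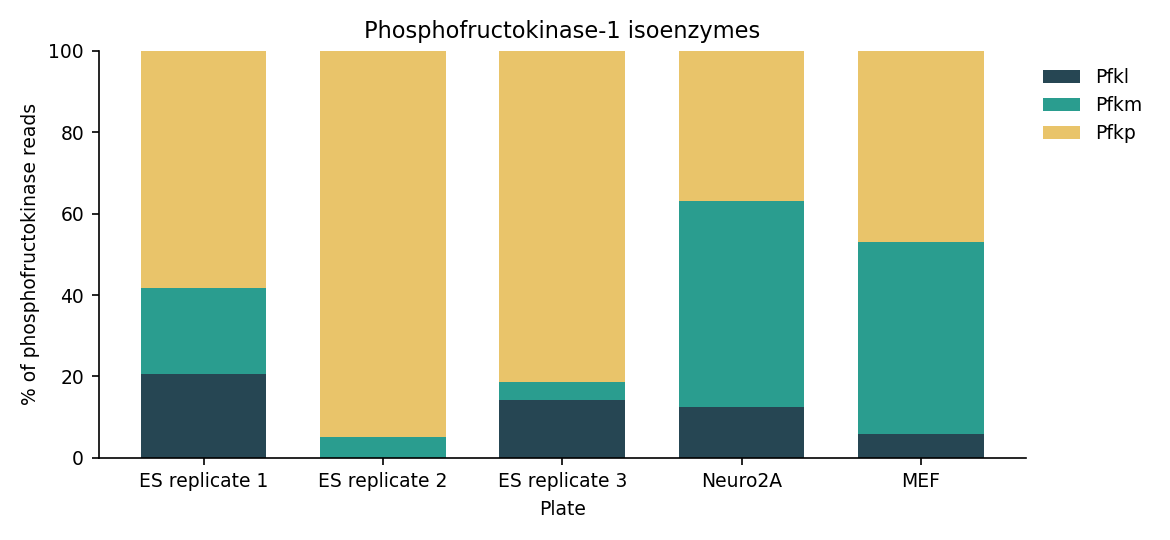
Share of the reads of the 3 phosphofructokinase subunits, in percent of their summed reads over the kept wells of each plate. Pfkp fills 58.2% to 94.9% of the ES bars, against 36.9% in Neuro2A and 47.1% in MEF, and Pfkm is the widest band of Neuro2A.

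Aldolase splits fructose-1,6-bisphosphate. Aldoa, the isoenzyme of muscle and most growing cells, had 2034, 2460.5 and 616 CPM in the ES plates 1, 2 and 3, against 423 CPM in Neuro2A and 262 CPM in MEF. All 3 ES plates were above both others, but replicate 3 was far below the other 2. The ES mean of 1703 ± 966 CPM (SD, n = 3) was 4.03 times Neuro2A and 6.50 times MEF. A well of ES replicate 1 stood apart: the 10 genes took 23.5% of its 19655 gene reads, with Aldoa alone at 19.7% and Pgk1 at 3.79%. That well held 15.3% of the plate's Aldoa reads, and the next highest well of the plate had 3.82% of its reads on the 10 genes. Aldoc, the brain aldolase, had 64.8, 26 and 60.9 CPM in the ES plates, against 0.320 CPM (1 read) in Neuro2A and 0 reads in MEF. Aldoa held 96.9%, 98.96% and 91.0% of the reads of both aldolases in ES, 99.9% in Neuro2A and 100% in MEF.

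Triose phosphate isomerase interconverts the products of aldolase. Tpi1 had 172, 153 and 224 CPM in the ES plates 1, 2 and 3, against 29.4 CPM in Neuro2A and 65.2 CPM in MEF. The groups did not overlap, and the ES mean of 183 ± 37.0 CPM (SD, n = 3) was 6.23 times Neuro2A and 2.81 times MEF. Gapdh, which makes NADH at the next step, had 82.3, 20.2 and 50.4 CPM in the ES plates 1, 2 and 3, against 6.40 CPM in Neuro2A and 3.01 CPM in MEF. These rest on 1025, 7 and 111 reads in ES, against 20 in Neuro2A and 6 in MEF. The Gapdh values are uncertain for another reason: its transcript matched 157 other annotated genes, 150 of them pseudogenes, at 90% identity or more over 50% of its length (GENCODE transcripts). How the authors' counting treated reads shared by such copies is not given in the sources used here.

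Phosphoglycerate kinase makes the first ATP of the pay-off stretch. Pgk1 had 926, 421 and 762 CPM in the ES plates 1, 2 and 3, against 119 CPM in Neuro2A and 524 CPM in MEF. Every ES plate was above Neuro2A, but MEF lay between ES replicates 2 and 3. The ES mean of 703 ± 257 CPM (SD, n = 3) was 5.92 times Neuro2A and 1.34 times MEF, and the MEF value was within 1 SD of it. A single well held 61.2% of the Pgk1 reads of Neuro2A. Eno1, the enolase of non-muscle and non-neuronal cells, had 266, 141 and 419 CPM in the ES plates 1, 2 and 3, against 44.8 CPM in Neuro2A and 180 CPM in MEF. Like Pgk1 it was above Neuro2A in every ES plate and above MEF in 2 of 3, with an ES mean of 275 ± 139 CPM (SD, n = 3). By the same rule Pgk1 had 2 copies (both pseudogenes, up to 100% identity) and Eno1 had 5 (up to 99.5%). Aldoa had 5 and Tpi1 had 1, at no more than 93.2% and 93.9% identity. Reads of these genes may also be split or shared. The other 5 genes had 0 such copies.

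The plate sums of all genes were fitted together, with the ES plates as the only source of spread, and ES was compared with MEF and with Neuro2A. No gene passed edgeR's quasi-likelihood test at an adjusted p of 0.05 in either comparison, so 0 of 10 glycolytic genes did, against a background of 0.0% of 12271 genes in each direction. For the 10 genes the adjusted p of that test, with Benjamini-Hochberg adjustment over all genes, lay between 0.556 and 0.968 against MEF and between 0.362 and 1.0 against Neuro2A. The 2 comparisons share the ES plates and are not independent.

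Against MEF, every ES plate was above for 5 of the 10 genes (Hk2, Pfkp, Aldoa, Tpi1 and Gapdh), where 23.3% of all genes tested were, and every ES plate was below for 0, where 39.8% were. At an unadjusted p under 0.05 by edgeR, 2 of the 10 were higher in ES, against 4.21% of all genes, and 0 were lower, against 4.17%. These were Pfkp, with a log2 fold change of 2.27 (SE 0.81, adjusted p = 0.556), and Aldoa, with 2.70 (SE 1.10, adjusted p = 0.589). Without the well of ES replicate 1 that stood apart, Aldoa was at 2.61 (SE 1.08) and no longer under the unadjusted threshold, which left 1 of the 10. With wells thinned to 1000 reads and that well kept in, Pfkp fell to 0.83 (SE 1.04), while Aldoa was at 3.76 (SE 0.98). DESeq2 called 0 of the 10 higher over all genes, where it called 3.39% of them, and 0 lower, where it called 0.733%. Its smallest adjusted p was 0.0541, for Aldoa. The median of the 10 was a log2 fold change of 1.17, beside -0.08 over all genes. Scaled by library size alone, the medians were 1.90 for the 10 genes and 0.65 for all genes. Hk1 at -0.44 (SE 3.69) and Gpi1 at -0.30 (SE 1.02) lay below the median of all genes. By library size alone they were at 0.45 and 0.42, also below it.

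Against Neuro2A, every ES plate was above for 7 of the 10 genes (Hk2, Pfkp, Aldoa, Tpi1, Gapdh, Pgk1 and Eno1), where 28.8% of all genes were, and below for 0, where 28.1% were. At an unadjusted p under 0.05 by edgeR, 4 of the 10 were higher in ES, against 8.38% of all genes, and 0 were lower, against 4.05%. They were Hk2 (log2 fold change 2.47, SE 0.85), Tpi1 (2.64, SE 0.91), Pgk1 (2.57, SE 0.88) and Eno1 (2.62, SE 1.01). Their adjusted p by edgeR was 0.366, 0.366, 0.362 and 0.390. DESeq2 called Hk2, Tpi1 and Pgk1 over all genes, 3 of 10 beside 8.85% of all genes, and 0 as lower beside 1.33%, with adjusted p = 0.0319, 0.0405 and 0.0149. Over all alternatives the adjusted p ranged from those values up to 0.648, 0.675 and 0.690. With wells thinned to 1000 reads the log2 fold change of Pgk1 over Neuro2A was 0.58. That of Pfkp fell from 1.87 to 0.81, while that of Eno1 was 3.26. The median of the 10 was 2.52, beside 0.91 over all genes, or 2.34 beside 0.71 with genes at 0 reads set to the bound that 3 reads give. Gpi1 was at 0.00 (SE 1.03), with its sign turning under the alternatives. In all, 5 of the 10 genes (Hk2, Pfkp, Aldoa, Tpi1 and Gapdh) had every ES plate above both Neuro2A and MEF, where 15.2% of all genes had.

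**Figure D3:**
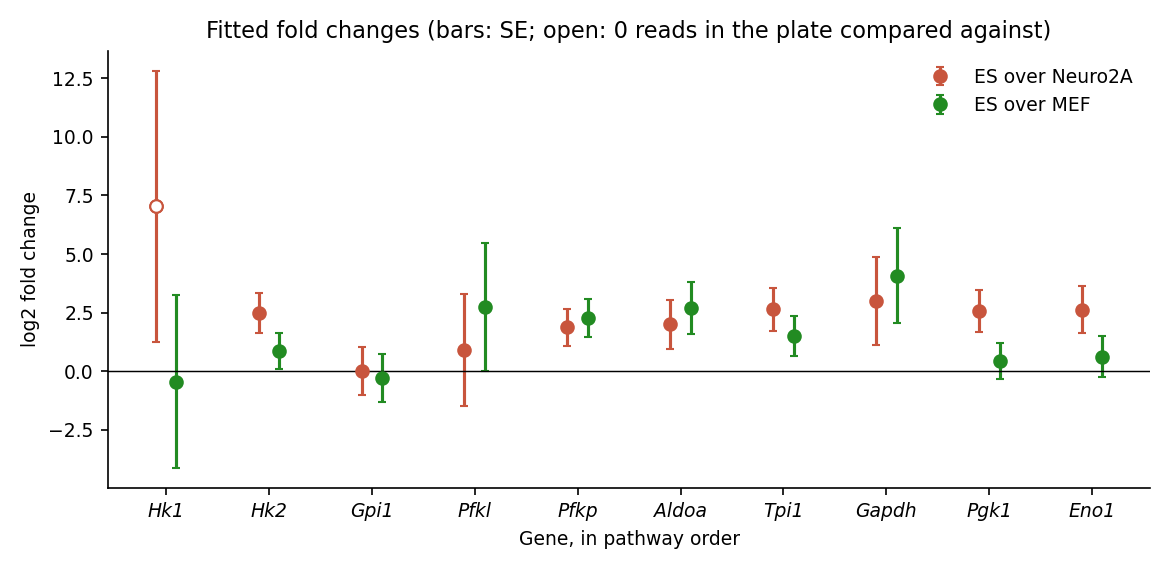
Fitted log2 fold changes of ES over Neuro2A (red) and ES over MEF (green) with their SE, from edgeR on the plate sums. For Hk2, Pgk1 and Eno1 the red point lies above the green one, at 2.47, 2.57 and 2.62 over Neuro2A and 0.85, 0.43 and 0.62 over MEF. The open point of Hk1 is fitted against 0 reads and is no bound.

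Neuro2A and MEF have 1 plate each, so their difference has no replicate check. Of the 10 genes, 2 were over 2 times higher in Neuro2A (31.4% of 11037 genes) and 5 were over 2 times lower (43.5%). With each well thinned to 1000 reads, so that wells count alike, 1 was over 2 times higher (Aldoa) and 1 over 2 times lower (Eno1) of the 7 that gave a ratio. Pgk1 in Neuro2A was at 0.226 times its MEF level (counting interval 0.201 to 0.255), but its direction turned with thinned wells, to a log2 ratio of 0.83. As summed, Eno1 in Neuro2A was at 0.249 times (0.203 to 0.304), Hk2 at 0.326 times (0.271 to 0.390) and Tpi1 at 0.451 times (0.341 to 0.594). Hk1 was the fifth, with 0 reads in Neuro2A against 11 in MEF. Pfkl was 3.58 times as high in Neuro2A (1.97 to 7.04), on the 2 wells named above, and Gapdh 2.12 times, with an interval of 0.823 to 6.46 that includes 1. Aldoa was 1.62 times (1.46 to 1.79) and Pfkp 1.32 times (1.04 to 1.69) as high in Neuro2A, and Gpi1 was at 0.811 times its MEF level.

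Within plates, the median kept well had 0.324%, 0.335% and 0.284% of its gene reads on the 10 genes in ES replicates 1, 2 and 3, against 0.0580% in Neuro2A and 0.0541% in MEF. The ES mean of these medians was 0.314% ± 0.027 (SD, n = 3), 5.41 times Neuro2A and 5.81 times MEF. Wells with no read of any of the 10 numbered 5, 4 and 0 in the ES plates, against 15 in Neuro2A and 16 in MEF. The lower quartiles were 0.128%, 0.176% and 0.210% in ES replicates 1, 2 and 3, against upper quartiles of 0.137% in Neuro2A and 0.114% in MEF, so that of ES replicate 1 lay below that of Neuro2A. In wells with a barcode ending in G the medians were higher in every plate, at 0.378%, 0.380% and 0.300% in ES, 0.0827% in Neuro2A and 0.0691% in MEF. In the other wells the medians were 0.319%, 0.262% and 0.261% in ES, 0.0292% in Neuro2A and 0.0472% in MEF, so ES was above both in each set of barcodes.

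**Figure D4:**
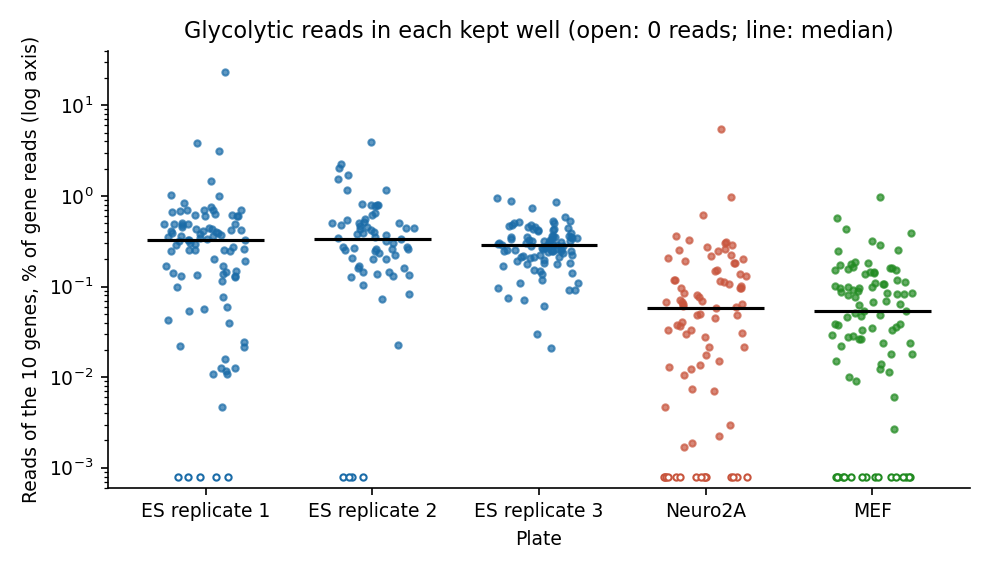
Share of each kept well's gene reads that fell on the 10 glycolytic genes, in percent on a log axis, by plate, with the median as a line and wells at 0 as open points. The ES medians lie between 0.284% and 0.335%, against 0.0580% in Neuro2A and 0.0541% in MEF, and 1 well of ES replicate 1 reaches 23.5%.

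Depth differs between plates, so shares of wells with a read were compared at 1000 reads per well. Any of the 10 genes was then read in 77.4%, 86.4% and 91.5% of wells in ES replicates 1, 2 and 3, against 40.7% in Neuro2A and 52.2% in MEF. The exact binomial intervals were 67.6% to 85.4%, 75.7% to 93.6% and 83.9% to 96.3% in ES, 30.2% to 51.8% in Neuro2A and 41.5% to 62.7% in MEF. Unthinned, the shares were 94.6%, 93.9% and 100% in ES, 82.6% in Neuro2A and 82.6% in MEF, at median depths of 101130, 2520.5 and 17003 reads in ES, against 26278 in Neuro2A and 12749 in MEF. Pgk2, the testis isoenzyme that these cells should lack, was read in 0 wells of any plate after thinning, which allows up to 3.19% to 4.55% of wells by plate. Aldoa was read in 49.5%, 62.1% and 28.7% of ES wells, against 25.6% in Neuro2A and 13% in MEF, and Pgk1 in 33.3%, 37.9% and 47.9% of ES wells, against 9.30% in Neuro2A and 21.7% in MEF. Hk2 was read in 14%, 21.2% and 34.0% of ES wells, against 2.33% in Neuro2A and 5.43% in MEF.

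At 10000 reads per well, ES replicate 2 drops out, and 84 and 70 wells of ES replicates 1 and 3 remain, with 63 of Neuro2A and 53 of MEF. Any of the 10 genes was then read in 92.9% of wells in ES replicate 1 and 100% in ES replicate 3, against 80.95% in Neuro2A and 96.2% in MEF, so ES replicate 1 no longer lay above MEF. Eno1 was read in 56.0% and 81.4% of ES wells, against 20.6% in Neuro2A and 24.5% in MEF. Tpi1 was read in 38.1% and 60.0% of ES wells, against 17.5% in Neuro2A and 15.1% in MEF, and Gapdh in 26.2% and 31.4% of ES wells, against 3.17% in Neuro2A and 1.89% in MEF. Hk2 no longer separated ES from MEF, with 36.9% and 81.4% of ES wells, against 23.8% in Neuro2A and 52.8% in MEF. Hk1 in ES replicate 3 was read in 1.43% of wells, as was Pgk2, both with an interval of 0.036% to 7.70%. Hk1 there cannot be told apart from background. In MEF it was read in 7.55% of wells.

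Cell-to-cell spread was measured as the squared coefficient of variation over wells of equal depth, relative to the trend of all genes at the same mean. At 1000 reads, 2 of 5 members that could be placed lay above the trend in ES replicate 1, 1 of 6 in ES replicate 2 and 1 of 6 in ES replicate 3, against 0 of 1 in Neuro2A and 1 of 2 in MEF. The share of all genes above it was 45.7%, 43.9% and 42.5% in ES replicates 1, 2 and 3, against 46.7% in Neuro2A and 43.5% in MEF. Without barcodes ending in G the counts in ES were 5 of 6, 3 of 6 and 0 of 6, where 49.0%, 50.4% and 44.1% of all genes did, so the count of ES replicate 1 depends on the wells used. At 1000 reads with all wells, Aldoa lay at percentile 99.7 of 1078 genes in ES replicate 1 and at percentile 99.0 of 1547 genes in ES replicate 2. In ES replicate 3 it lay at percentile 62.2 of 1614 genes at that depth. In ES replicate 1 at 10000 reads, Aldoa had a coefficient of variation of 5.05 and lay at percentile 99.99 of 3757 genes, and Pgk1 had 3.34 and lay at percentile 96.3. Without the well that stood apart, Aldoa had 2.30 and lay at percentile 93.8, while Pgk1 had 1.54 and lay at percentile 16.5. In ES replicate 3 at 10000 reads, Aldoa (1.07) lay at percentile 37.3 and Pgk1 (0.888) at percentile 30.1 of 6318 genes. Of the 9 members that could be placed at 10000 reads, 2 lay above the trend in ES replicate 1 (1 without that well) and 1 in ES replicate 3, where 50.7% and 45.6% of all genes did. In Neuro2A 2 of 7 did and in MEF 3 of 7, where 49.98% and 47.1% of all genes did.

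Pairs of glycolytic genes varied together across wells weakly, as pairs of all genes did. Over 36 pairs of 9 members the median Spearman's rho was 0.113 in ES replicate 1 (84 wells) and 0.086 in ES replicate 3 (70 wells), beside 0.120 and 0.038 over pairs of all genes. Over 21 pairs of 7 members it was 0.154 in Neuro2A (63 wells) and 0.035 in MEF (53 wells), beside 0.114 and 0.051. The highest pair was Hk2 with Pfkp in ES replicate 1, at 0.462. With ribosomal protein genes left out, the genes whose reads most followed the summed glycolytic reads over the ES plates were Rnf44, Ppp1cb, LOC672959, EG434428 and Fbl. Their mean rho was 0.235, 0.211, 0.208, 0.176 and 0.174 among 707 genes. In ES replicate 1 that of Rnf44 was 0.016. All these points share a library and sparse counts, and correlations this weak are no finding.

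Genes around the pathway were counted list by list. Of 9 other glycolytic genes with reads, 7 were tested and 0 passed edgeR's test in either comparison. Pgam1, the phosphoglycerate mutase, had 1061, 473 and 1000.3 CPM in the ES plates 1, 2 and 3, against 480 CPM in Neuro2A and 830 CPM in MEF, and the groups overlapped. Pkm2, the pyruvate kinase, had 994, 438 and 1318 CPM in ES, against 279 CPM in Neuro2A and 605 CPM in MEF. Aldoc, described above, had the largest ratio to MEF (at least 33.6-fold higher in ES). Its DESeq2 adjusted p was 0.0155 against MEF and 0.0148 against Neuro2A.

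Regulators of the flux lay on both sides of 0. Pdk1, a kinase that closes the entry of pyruvate into the mitochondrion, had 185, 216 and 147 CPM in the ES plates 1, 2 and 3, against 2.24 CPM (7 reads) in Neuro2A and 1.51 CPM (3 reads) in MEF. Its unadjusted p by edgeR was 0.00174 against MEF and 0.00214 against Neuro2A. The adjusted p was 0.472 against MEF and 0.215 against Neuro2A by edgeR, and 1.7e-05 against MEF and 6e-06 against Neuro2A by DESeq2, which called it in both. Pfkfb3, whose product raises the activator of phosphofructokinase, had 0.722, 0 and 24.1 CPM in ES, against 273 CPM in Neuro2A and 40.1 CPM in MEF. Pdk3 had 99.9, 11.5 and 36.3 CPM in ES, against 0 reads in Neuro2A and 128 CPM in MEF. Of 8 tested regulators, every ES plate was above MEF for 2 (23.3% of all genes) and below for 2 (39.8%), and above Neuro2A for 3 (28.8%) and below for 2 (28.1%).

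In the pentose phosphate pathway, which branches off before phosphofructokinase, 0 of 7 genes passed edgeR's test. Every ES plate was above MEF for 4, where 23.3% of all genes were, and below for 2, where 39.8% were. Every ES plate was above Neuro2A for 4 and below for 1, where 28.8% and 28.1% of all genes were. G6pdx, the entry enzyme, had 62.4, 49.0 and 48.2 CPM in the ES plates 1, 2 and 3, against 5.44 CPM in Neuro2A and 6.52 CPM in MEF. Tkt, transketolase, had 86.5, 72.1 and 175 CPM in ES, against 2.88 CPM in Neuro2A and 77.8 CPM in MEF, and DESeq2 called it against Neuro2A (adjusted p = 0.00112). Rpia, an isomerase of the non-oxidative arm, had 0, 17.3 and 1.82 CPM in ES, against 79.6 CPM in Neuro2A and 44.2 CPM in MEF. Gluconeogenic genes were low, with 4 of 7 read and 0 with all ES plates on one side of MEF or Neuro2A. Of 6 transport and lactate genes 0 passed edgeR's test, and DESeq2 called Slc2a3, a glucose importer, against Neuro2A (adjusted p = 0.000341) and MEF (adjusted p = 0.000283), with 572, 525 and 350 CPM in ES, against 35.2 CPM in Neuro2A and 34.1 CPM in MEF. It also called the importer Slc2a1 (adjusted p = 0.0266) and Ldhb (adjusted p = 3.7e-05, 0 reads in Neuro2A) against Neuro2A, while Ldha overlapped between groups, with 330, 193 and 596 CPM in ES, against 472 CPM in Neuro2A and 547 CPM in MEF.

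The list of hypoxia-inducible genes outside glycolysis had a negative median in both comparisons. The genes tested were Vegfa, Bnip3, Bnip3l, Adm, Ndrg1, Egln1, P4ha1, P4ha2, Ddit4, Higd1a and Hif1a, the last being the gene of such a factor itself. Pdk1, described above, was counted with the flux regulators and not here, so the median depends on how the lists were filled. Of 11 tested, every ES plate was below MEF for 5 (39.8% of all genes) and above for 1 (23.3%), and below Neuro2A for 7 (28.1%) and above for 3 (28.8%). Their median log2 fold change was -1.12 against MEF and -0.60 against Neuro2A, beside -0.08 and 0.91 over all genes, and 0 passed edgeR's adjusted test. Vegfa, the endothelial growth factor, had 37.8, 34.6 and 15.0 CPM in the ES plates 1, 2 and 3, against 340 CPM in Neuro2A and 256 CPM in MEF. P4ha1, a collagen prolyl hydroxylase, had 28, 34.6 and 32.3 CPM in ES, against 46.1 CPM in Neuro2A and 325 CPM in MEF. DESeq2 called Vegfa lower against Neuro2A (adjusted p = 0.0148) and P4ha1 lower against MEF (adjusted p = 0.0393). Bnip3, a mitophagy receptor, was the gene above MEF in every ES plate. It had 83.6, 28.8 and 55.9 CPM in ES, against 37.7 CPM in Neuro2A and 2.01 CPM (4 reads) in MEF. DESeq2 called Bnip3 higher over MEF (adjusted p = 0.0376). The 3 genes above Neuro2A in every ES plate were Higd1a, Hif1a and Ndrg1 (0 reads in Neuro2A). Higd1a had 128, 110 and 436 CPM in ES, against 71.0 CPM in Neuro2A and 556 CPM in MEF. Hif1a had 300, 98.1 and 110 CPM in ES, against 90.2 CPM in Neuro2A and 156 CPM in MEF.

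**Figure D5:**
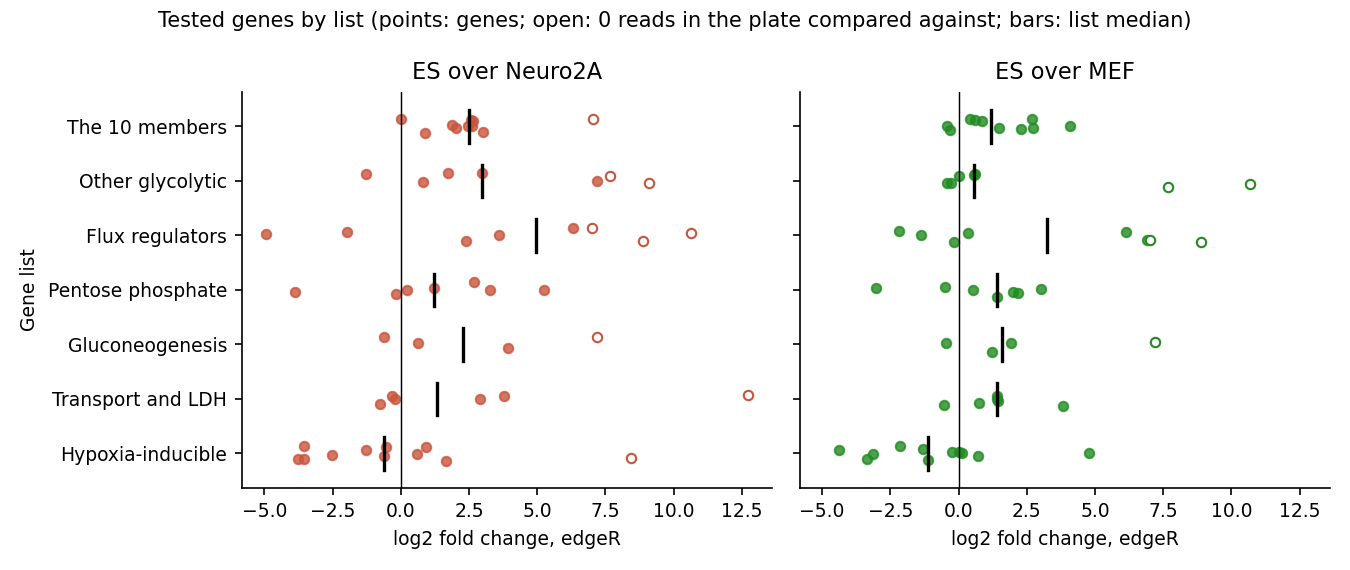
Fitted log2 fold changes of the tested genes of each list, ES over Neuro2A (left) and ES over MEF (right), with the list median as a bar and open points for genes at 0 reads in the plate compared against, whose value is no bound. The 10 glycolytic genes have medians of 2.52 and 1.17, and the hypoxia-inducible genes -0.60 and -1.12.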

How the data were processed

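The authors deposited raw counts of hits per feature and well barcode, per their readme. Per the submitters' processing notes, Bowtie was used. What version, build, annotation and strand setting it ran with, and how reads with several matches were handled, is not given in the sources used here. Genes that a file does not list count as 0, repeats and mitochondrial genes stayed out of library sizes and tests, and wells under 1000 gene reads were left out.

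For each plate the counts of kept wells were added up, and edgeR 4.0.16 fitted all 5 sums together (glmQLFit, glmQLFTest, TMM, filterByExpr, Benjamini-Hochberg over all genes at 0.05), with a common dispersion of 1.50 and 2 residual degrees of freedom that come from the 3 ES plates. The lone Neuro2A and MEF plates are assumed to vary like them. DESeq2 1.42.0 and limma-voom (limma 3.58.1) served as alternatives. On simulated counts with known changes, edgeR called nearly all of them at a low dispersion and none at a dispersion like that of these plates, so its lack of calls here says little. Neuro2A over MEF is a ratio of CPM with an exact conditional binomial interval of 95.0% and no test. For shares and spread, wells were thinned to 1000 reads with a fixed seed, and to 10000 reads as an alternative chosen after seeing the data, and intervals of shares are exact binomial (Clopper-Pearson). A limit beside a share of 0 is 3 wells of the total, and a floor is 3 reads per library. No doublets were called, since cells were sorted 1 per well.

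Near copies were sought with blastn 2.17.0 among GENCODE transcripts, and upstream windows come from RefSeq. The 10 genes were given by name, and from each list around the pathway those at 100 CPM or more in a group, or with the largest or smallest ratio, could be named. Members and lists were chosen with earlier results of these data known. Bnip3 and the Hk2 and Pfkp pair were singled out after their values were seen. R was 4.3.3, Python 3.11.15, scipy 1.17.1, pandas 2.3.3, numpy 2.4.6 and matplotlib 3.10.9.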

Additional observations from a re-analysis of the deposited data

Results flagged for a closer look

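Wells under 1000 gene reads were left out of every comparison, yet the 10 glycolytic genes had 38 reads in the 30 left-out wells of ES replicate 2 and 5 reads in the 4 left-out wells of MEF, both above the 3 reads that a count of 0 allows. That was 0.261% of the gene reads of those ES replicate 2 wells and 0.244% of those of the MEF wells.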

How the results depend on the processing

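No paired analysis was possible because Neuro2A and MEF have 1 plate each and so share at most 1 replicate number with ES. Of ES over MEF, genes called higher and lower numbered 9 and 0 with no filter on low counts, 416 and 90 with DESeq2, 1 and 491 with limma-voom and 24 and 53 with wells thinned to 1000 reads. Leaving out each ES replicate gave 0 to 25 higher (25 without replicate 1, on 1 residual degree of freedom) and 0 lower. Of ES over Neuro2A, the numbers were 76 and 6 with no filter, 1086 and 163 with DESeq2 and 76 and 79 with thinned wells, and leaving out each ES replicate gave 0 to 309 higher and 0 to 117 lower, the highest of both without replicate 1. Of the 7 glycolytic genes tested with thinned wells, 1 (Aldoa, adjusted p = 0.0477 by edgeR, up to 0.834 elsewhere) was called over MEF. Over all genes, 24 of 4369 were called higher in that fit. The well of ES replicate 1 that stood apart, with 19.7% of its reads on Aldoa, stayed in it, and thinned wells count alike. How far the call rests on that well was not tested. Over Neuro2A, DESeq2 called 3 of the 10 glycolytic genes. The median log2 fold change of the glycolytic genes tested over MEF was 1.90 by library size alone, 1.73 with no filter and 1.56 with thinned wells. It was 1.85 without barcodes ending in G, 1.52 with the shares of MEF and Neuro2A reads subtracted and 0.95 to 1.86 with an ES replicate left out. The median of all genes moved too, from -0.08 to 0.65, 0.99, 0.34, 0.46 and 0.60 under those settings and to between -0.33 and 0.34 with a replicate left out. Over Neuro2A the median of the glycolytic genes tested was 2.13 with limma-voom, 1.87 with thinned wells and 2.31 to 2.75 with an ES replicate left out. The median of all genes was 0.34, 0.52 and 0.25 to 0.87 under those settings.

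Signs turned for Hk1 and Gpi1, and for Pgk1 between Neuro2A and MEF. Hk1 over MEF was 0.45 by library size alone, 0.16 with no filter and -2.15 to 0.70 with an ES replicate left out, the highest without replicate 1. In the first and second of these settings Hk1 stayed below the median of all genes. Gpi1 over MEF was 0.42 by library size alone, 0.30 with no filter, 1.20 with thinned wells and 0.26 without barcodes ending in G. It was 0.068 with the shares of MEF and Neuro2A reads subtracted and -0.45 to 0.57 with an ES replicate left out, the highest without replicate 2. Gpi1 over Neuro2A was -0.036 with DESeq2 size factors, -0.033 with DESeq2, -0.10 without barcodes ending in G, -0.022 with subtraction and -0.64 to 0.38 with an ES replicate left out, the lowest without replicate 1. In Neuro2A over MEF, the log2 ratio of Gpi1 was 0.24 by library size alone, 0.090 with subtraction and 0.39 with thinned wells. That of Pgk1 was 0.83 with thinned wells, where each well counts alike, and a Neuro2A well of 1164 gene reads held 62 Pgk1 reads. With thinned wells, 1 gene was over 2 times higher and 1 over 2 times lower in Neuro2A. The other 8 genes kept their sign over MEF and the other 9 over Neuro2A in every alternative that gave a value. For 2 of these 9 that sign says little: Pfkl over Neuro2A fell as low as 0.0008, and Hk1, with 0 reads in Neuro2A, ran from 0.87 to 7.56. The cause of these shifts was not tested.

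Shares of wells with any of the 10 genes rise with depth: at 2000 reads they were 94.9% in ES replicate 2, 96.7% in ES replicate 3 and 52.6% in Neuro2A. At 10000 reads, an alternative chosen after seeing the data, they were 92.9% in ES replicate 1 (92.8% without the well that stood apart), 100% in ES replicate 3, 80.95% in Neuro2A and 96.2% in MEF, so ES replicate 1 no longer lay above MEF. Unthinned they were 94.6%, 93.9% and 100% in the ES plates, against 82.6% in Neuro2A and 82.6% in MEF. The median residual of the spread (log10 scale) was -0.24 in ES replicate 3 and -0.062 in MEF at 10000 reads, and -0.079 in MEF at 2000 reads. ES replicate 2, the shallowest plate, limits what can be said of Hk1, Pfkl and Gapdh, and 1 plate each of Neuro2A and MEF gives no spread of their own.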
